A study of Homo sapiens with 6 samples.

Results

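The insulin-like growth factor (IGF) system was followed in 2 derivatives of SKOV3.ip1, a human ovarian carcinoma line, through 10 listed genes: the ligand gene IGF2, the receptor gene IGF2R, the binding protein genes IGFBP2 to IGFBP7, and IRS1 and IRS2, which encode adaptors. The list was chosen with earlier results of these data known. From it, every probe set annotated to exactly 1 of these genes was taken, without regard to its values, which gave 22 of the 54613 probe sets and 9 of the 19775 genes on the arrays. IGF2 itself has no such probe set, because the 3 that carry its name are also annotated to the INS-IGF2 read-through gene, so the ligand of the list is not described. The samples were 3 arrays of the S116D line and 3 of the S116A line. The S116D line was stably transfected with a vector for phosphomimetic PEA-15, in which aspartic acid replaces a serine. The titles name 1 serine, and the sample characteristics name another as well, so whether the form carries 1 or 2 substitutions is not settled. The S116A line was stably transfected with a vector for nonphosphorylatable PEA-15, in which alanine replaces the serine. PEA-15 is a cytoplasmic adaptor that holds the kinase ERK outside the nucleus and can bind the death adaptor FADD. Both lines carry a vector, and neither parental cells nor cells with an empty vector were analysed here, so the values say how the 2 lines differ and not which of them departs from SKOV3.ip1. Whether a line is 1 clone or a pool, and whether its arrays came from separate cultures, is not stated in the labels, so p-values measure only how these samples vary, which may be technical.

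IGF1 and IGF2 signal through the IGF1 receptor tyrosine kinase, and insulin through the related insulin receptor. The activated receptors phosphorylate IRS1 and IRS2, docking proteins that recruit phosphatidylinositol 3-kinase (PI3K) and so connect the receptors to AKT. IGF2R, the cation-independent mannose 6-phosphate receptor, has no kinase domain, sorts lysosomal enzymes and removes IGF2 from the cell surface. Secreted IGF binding proteins hold the ligands outside the cell, where proteases such as PAPP-A, the product of PAPPA, cut some of them and release the ligand.

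Of the 9 measured genes, 5 had a probe set that passed the test and 4 had none. IGFBP7, IGFBP5 and IRS1 were higher in S116D, on all 3 probe sets of IGFBP7, on 3 of 6 of IGFBP5 and on 2 of 3 of IRS1. IGFBP6 was lower on its only probe set, and IGF2R on 1 of 3. In all, 8 of the 22 probe sets were higher and 2 lower at a limma adjusted p under 0.05, which is 45.5%. Of all 54613 probe sets 8.55% passed, 4.36% higher and 4.19% lower. Probe sets of 1 gene share a transcript, so these 22 are not 22 independent readings. The lines did not overlap on 12 of the 22, or 54.5%, against 24.0% of all probe sets. The median log2 difference, S116D minus S116A, was 0.04 over the 22 and 0.003 over all probe sets. When 1 array was left out, the number called was 5 without S116D replicate 3, 5 without S116A replicate 1 and 7 without each of the other 4.

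**Figure D1:**
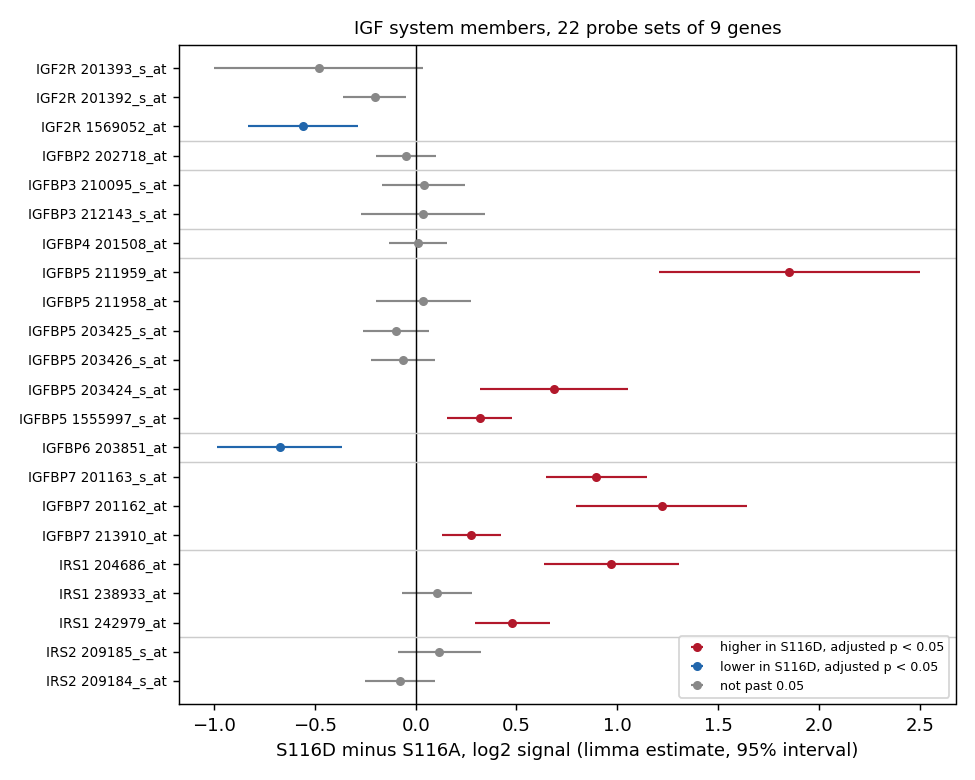
Difference between the lines for each of the 22 member probe sets, as S116D minus S116A in log2 signal (horizontal axis), with points for limma's estimate and bars for its 95% interval; grey lines separate the 9 genes, and within a gene the probe set with the highest mean is on top. The largest difference is that of IGFBP5 211959_at at 1.85, whereas IGFBP2, IGFBP3, IGFBP4 and IRS2 lie within 0.12 of 0.

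Median log2 signals of the 6 arrays lay between 7.86 and 7.89. Across all probe sets, pairs of arrays from the same line had r of 0.995 to 0.998 and pairs from different lines 0.987 to 0.990. A second principal component with 20.3% of the variance set S116D replicate 1, S116A replicate 1 and S116A replicate 2 apart from the other arrays, a split that no label describes. For GAPDH, the 3′ control probe set exceeded the 5′ one, a sign of how intact the RNA was, by a log2 ratio of 0.73 to 0.79 on the first of these sets and 0.65 to 0.71 on the second. The same ratio for ACTB was larger, at 2.33 to 2.44 on the first set and 2.27 to 2.47 on the second, and did not separate them. All 10 called member probe sets had the same direction within each set. Since each set holds arrays of both lines, this follows from lines that do not overlap and adds nothing to the calls; with the sets as a block, or with the GAPDH ratio as a covariate, 10 member probe sets were called again, 8 higher and 2 lower. Of 10 markers of ovarian carcinoma and epithelium, 5 (EPCAM, KRT7, KRT8, KRT18 and KRT19) were lower in S116D and none higher on the brightest probe set of each gene, against 11.0% of all genes called in that way and 4.82% lower. The mean log2 signal of the list was 10.90 to 11.23 in S116D and 11.44 to 11.71 in S116A. PAX8 was bright in both lines, at a mean of 12.82 in S116D and 12.77 in S116A, whereas MUC16 read 6.56 to 6.64 in S116D and 6.66 to 6.78 in S116A, close to the lower quartile of the arrays. Of 4 measured leukocyte and 6 fibroblast markers none passed by limma (0 and 1 at an unadjusted p under 0.05), and of 4 endothelial markers KDR was lower. KDR read 5.63 to 5.79 in S116D and 6.10 to 6.19 in S116A, below the lower quartile of every array. The mean of the leukocyte list was 7.10 to 7.14 in S116D and 7.08 to 7.16 in S116A. For fibroblast markers it was 8.11 to 8.14 in S116D and 8.17 to 8.21 in S116A, and for endothelial markers 7.20 to 7.32 in S116D and 7.36 to 7.46 in S116A. The brightest marker of each list read above the array medians, at a mean over the 6 arrays of 9.54 for CD3E, 10.12 for COL1A1 and 9.52 for PECAM1. The table holds no detection calls, so no marker can be called absent. The part of these markers in the results below was not tested, and in RNA from a whole culture fewer cells of a type and less RNA per cell cannot be told apart.

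The DNA just upstream of the start sites is shown for IRS1 and IGFBP5, which were higher, and for IGFBP6, which was lower, as 3 of the genes with a call. The 250 bases before each start come from RefSeq on GRCh38.p14 and are written 5′ to 3′ along the gene, with matches to the motifs searched in capitals.
IRS1, chr2:226799821-226800070, strand -: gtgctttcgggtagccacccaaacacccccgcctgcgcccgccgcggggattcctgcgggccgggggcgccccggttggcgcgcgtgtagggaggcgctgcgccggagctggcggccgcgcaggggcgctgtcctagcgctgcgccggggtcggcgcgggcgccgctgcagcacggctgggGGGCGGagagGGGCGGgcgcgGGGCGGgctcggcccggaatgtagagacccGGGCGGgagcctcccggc
IGFBP5, chr2:216695550-216695799, strand -: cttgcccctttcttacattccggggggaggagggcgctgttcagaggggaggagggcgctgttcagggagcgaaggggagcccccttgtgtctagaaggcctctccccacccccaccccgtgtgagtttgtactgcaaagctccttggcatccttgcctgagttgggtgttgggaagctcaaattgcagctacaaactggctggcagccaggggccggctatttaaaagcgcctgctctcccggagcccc
IGFBP6, chr12:53097417-53097666, strand +: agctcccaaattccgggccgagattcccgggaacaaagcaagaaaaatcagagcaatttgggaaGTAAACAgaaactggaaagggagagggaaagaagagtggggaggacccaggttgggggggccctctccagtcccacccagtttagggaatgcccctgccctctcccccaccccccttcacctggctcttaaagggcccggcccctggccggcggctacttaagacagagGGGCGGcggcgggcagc
The motifs were a TATA box (TATAAA), a GC box (GGGCGG), an AP-1 site (TGANTCA), a FOXO core (GTAAACA), a TCF/LEF core (CTTTGAT) and an E-box (CACGTG), each on both strands. No matches of different motifs overlap in these 3 sequences. IRS1 holds 4 GC boxes, IGFBP6 holds 1 GC box and 1 FOXO core, and IGFBP5 holds none of the 6 motifs. Among the same window of all 35116 promoters in the table, 42.6% hold a GC box and 2.98% a FOXO core. The IRS1 stretch is 80.8% G and C with 39 CpG dinucleotides, and those of IGFBP5 and IGFBP6 are 61.2% each, with 8 and 9 CpG, against a median of 58% and 11 CpG over all promoters. IGFBP7, which was also higher, had no upstream sequence available here. The stretch of IGF2R, which was lower on 1 of 3 probe sets, is not printed. It holds 6 GC boxes and 3 E-boxes, and 6.34% of all promoters hold an E-box. IRS1 and IGFBP5 shared no motif of this set, which follows from IGFBP5 holding none, and a match is a description, not a site of binding.

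IGF2R, which binds IGF2 and delivers it to lysosomes, had differences of -0.56 to -0.20 on its 3 probe sets, and only the dimmest passed the test, lower in S116D. On 1569052_at the S116D arrays read 5.72, 5.91 and 5.67 and the S116A arrays 6.43, 6.50 and 6.04. The lines did not overlap, and S116A replicate 3 lay closest to the S116D arrays. The difference was -0.56 ± 0.12 (SE; limma adjusted p = 0.024), or 1.47-fold, at signals below the lower quartile of every array. Without S116D replicate 1, S116D replicate 3, S116A replicate 1 or S116A replicate 2 the adjusted p was 0.055 to 0.095. On the brightest probe set, 201393_s_at, the S116D arrays read 11.83, 11.62 and 10.97 and the S116A arrays 12.14, 12.12 and 11.60. There the lines overlapped, because S116D replicates 1 and 2 exceeded S116A replicate 3, and the difference of -0.48 had a 95% interval of -0.998 to 0.03 (limma adjusted p = 0.29). The remaining probe set, 201392_s_at, read 8.46 to 8.49 in S116D and 8.60 to 8.73 in S116A, without overlap and with a difference of -0.20 (limma adjusted p = 0.13).

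Among the binding proteins, IGFBP7, IGFBP5 and IGFBP6 passed the test and IGFBP2, IGFBP3 and IGFBP4 did not. IGFBP7, also known as angiomodulin, is a secreted protein that binds IGFs with lower affinity than the classical binding proteins and is deposited in the matrix of blood vessels. Its brightest probe set, 201163_s_at, read 14.04, 13.68 and 13.73 on the S116D arrays and 12.92, 13.05 and 12.80 on the S116A arrays. Every S116D array lay above every S116A array, and the gap between the closest of them exceeded the SD of either line. The means were 13.82 ± 0.20 in S116D and 12.92 ± 0.13 in S116A (SD, n = 3 each), a difference of 0.90 ± 0.11 (SE; limma adjusted p = 0.0018), or 1.86-fold. On 201162_at the S116D arrays read 12.48, 11.79 and 11.72 and the S116A arrays 10.73, 10.92 and 10.68. S116D replicate 1 was the highest on both of these probe sets. The second difference was 1.22 ± 0.19 (SE; limma adjusted p = 0.0050), or 2.33-fold. Within the first set of arrays it was 1.65 and within the second 1.07. The dim probe set 213910_at differed by 0.28 ± 0.06 (SE; limma adjusted p = 0.031), at 6.86 to 6.95 in S116D and 6.56 to 6.72 in S116A. Its adjusted p was 0.059 to 0.12 when S116D replicate 1, 2 or 3 or S116A replicate 1 or 3 was left out, whereas both brighter probe sets passed whichever array was left out.

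IGFBP5, a binding protein that associates with the extracellular matrix, showed the largest difference of the listed genes, on a probe set where S116A was dim. On 211959_at the S116D arrays read 8.82, 8.12 and 9.48 and the S116A arrays 7.11, 6.83 and 6.92. All S116D arrays were above the array medians and all S116A arrays below them, and the S116D arrays spread over more than 1 log2 unit, with replicate 3 highest and replicate 2 lowest. The means were 8.81 ± 0.68 in S116D and 6.95 ± 0.14 in S116A (SD, n = 3 each), a difference of 1.85 ± 0.28 (SE; limma adjusted p = 0.0052), or 3.61-fold. This call held whichever array was left out, with differences of 1.52 to 2.20. On 203424_s_at the S116D arrays read 7.35, 6.94 and 7.68 and the S116A arrays 6.71, 6.66 and 6.54, with the same order of the S116D arrays. That difference was 0.69 ± 0.16 (SE; limma adjusted p = 0.033), and it no longer passed without S116D replicate 1, S116D replicate 3 or any of the S116A arrays, at adjusted p of 0.062 to 0.10. Another probe set, 1555997_s_at, was higher by 0.32 ± 0.07 (SE; limma adjusted p = 0.028) and did not pass without S116D replicate 2 or 3 or S116A replicate 1 or 3, at 0.061 to 0.11. The other 3, 211958_at, 203425_s_at and 203426_s_at, read between 7.26 and 7.75 in S116D and between 7.31 and 7.66 in S116A, overlapped, and differed by -0.10 to 0.04. The probe sets of IGFBP5 thus disagreed, and where each lies on the transcript was not used here.

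IGFBP6, which prefers IGF2 to IGF1 as a ligand, was the binding protein of the list that was lower in S116D. Its probe set, 203851_at, read 11.65, 11.32 and 11.22 on the S116D arrays and 12.13, 12.23 and 11.85 on the S116A arrays. The lines did not overlap; S116D replicate 1 and S116A replicate 3 were the closest to each other. The means were 11.40 ± 0.23 in S116D and 12.07 ± 0.20 in S116A (SD, n = 3 each), a difference of -0.67 ± 0.14 (SE; limma adjusted p = 0.018), or 1.60-fold. The adjusted p was 0.073 to 0.081 without S116D replicate 2, S116D replicate 3, S116A replicate 1 or S116A replicate 2.

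**Figure D2:**
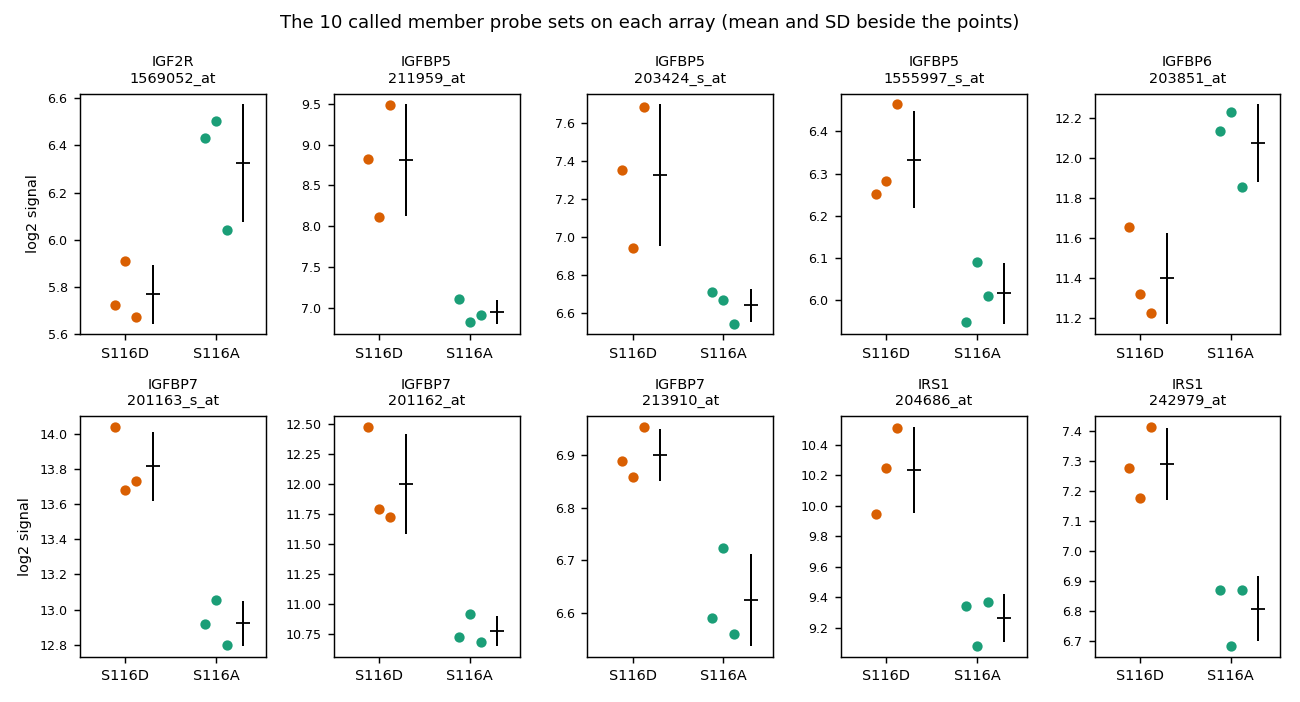
Log2 signal (vertical axis, a separate scale in each panel that does not start at 0) of the 10 called member probe sets on each of the 3 S116D and 3 S116A arrays; points are arrays in the order of replicates 1 to 3, and the bar beside them is the mean with the SD. The lines do not overlap on any panel, and the S116D arrays spread most on IGFBP5 211959_at, with an SD of 0.68.

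The 3 remaining binding proteins did not pass the test. IGFBP3, the main carrier of IGFs in blood, read 14.36, 13.99 and 14.22 on the S116D arrays and 14.18, 14.17 and 14.09 on the S116A arrays of 210095_s_at. The S116D arrays lay on both sides of the S116A arrays, and the difference of 0.04 had a 95% interval of -0.17 to 0.25 (limma adjusted p = 0.90). Its second probe set, 212143_s_at, differed by 0.04 (95% interval -0.27 to 0.34). IGFBP4, a binding protein that PAPP-A cleaves, read 7.99 to 8.06 in S116D and 7.97 to 8.04 in S116A, with a difference of 0.01 (95% interval -0.13 to 0.15). IGFBP2, which lies next to IGFBP5 on chromosome 2, was dim in both lines, at 5.94 to 6.06 in S116D and 5.92 to 6.12 in S116A, and differed by -0.05 (95% interval -0.20 to 0.10). These intervals leave out a 1.5-fold difference in signal for all 4 probe sets, though probe sets as dim as that of IGFBP2 may not follow the transcript.

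Of the adaptors, IRS1 was higher in S116D and IRS2 was not shown to differ. IRS1 on its brightest probe set, 204686_at, read 9.95, 10.25 and 10.51 on the S116D arrays and 9.35, 9.08 and 9.37 on the S116A arrays. Every S116D array exceeded every S116A array by more than the SD of either line. The means were 10.24 ± 0.28 in S116D and 9.27 ± 0.16 in S116A (SD, n = 3 each), a difference of 0.97 ± 0.15 (SE; limma adjusted p = 0.0048), or 1.96-fold. On its dimmest probe set, 242979_at, the S116D arrays read 7.28, 7.18 and 7.41 and the S116A arrays 6.87, 6.68 and 6.87. All of these were below the array medians, again without overlap, with a difference of 0.48 ± 0.08 (SE; limma adjusted p = 0.0087). Both calls held whichever array was left out, at adjusted p of up to 0.035. The second brightest probe set, 238933_at, read 9.44 to 9.59 in S116D and 9.39 to 9.43 in S116A. Its difference of 0.11 had a 95% interval of -0.07 to 0.28 (limma adjusted p = 0.55). Its mean over the 6 arrays was 9.46, against 7.05 for 242979_at, so a brighter probe set of IRS1 did not pass where a dimmer one did. IRS2, the other widely expressed member of the family, read 11.66, 11.86 and 11.76 on the S116D arrays and 11.52, 11.67 and 11.74 on the S116A arrays of 209185_s_at. These ranges overlapped, and the difference was 0.12 (95% interval -0.09 to 0.32; limma adjusted p = 0.59). Its other probe set, 209184_s_at, differed by -0.08 (95% interval -0.25 to 0.10). Whether the IRS1 difference exceeded that of IRS2 was not tested.

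**Figure D3:**
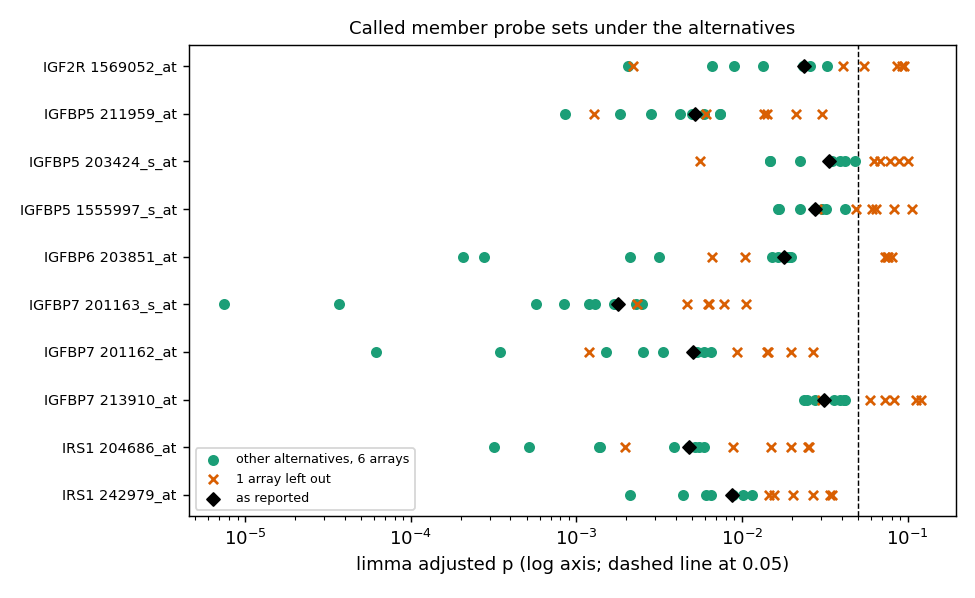
Limma adjusted p (horizontal log axis, dashed line at 0.05) of the 10 called member probe sets as reported (diamonds), with 1 array left out (crosses) and under the other alternatives (circles). Only crosses lie to the right of the line, and those of IGFBP5 211959_at, IGFBP7 201163_s_at, IGFBP7 201162_at, IRS1 204686_at and IRS1 242979_at all lie to its left.

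The rest of the pathway was read from a list of 65 other genes, of which 59 had a probe set of their own, each represented by the one with the highest mean. That list, too, was chosen with earlier results of these data known. Of these 59, 2 were higher and 8 lower in S116D, which is 16.9%, against 11.0% of all 19775 genes read the same way (6.13% higher and 4.82% lower). Their median difference was -0.06, and that of all genes 0.006. Without 1 array the number called was 5 without S116D replicate 2, 6 without S116D replicate 3, 5 without S116A replicate 1, 6 without S116A replicate 2, 12 without S116D replicate 1 and 11 without S116A replicate 3. The count was 20, 10 higher and 10 lower, with the second-component sets as a block, and 23, 6 higher and 17 lower, with the GAPDH ratio as a covariate.

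Both signalling receptors were lower on their brightest probe sets. IGF1R, the IGF1 receptor gene, read 9.01, 8.88 and 8.89 on the S116D arrays and 9.63, 9.55 and 9.40 on the S116A arrays, a difference of -0.60 ± 0.09 (SE; limma adjusted p = 0.0041). This was its brightest probe set and the only one of 5 called. The other 4 differed by -0.39 to 0.09. INSR, the insulin receptor gene, read 10.48, 10.15 and 10.29 in S116D and 10.93, 10.73 and 10.71 in S116A, a difference of -0.48 ± 0.11 (SE; limma adjusted p = 0.028), and was also called on that 1 of its 5 probe sets. The other 4 INSR probe sets differed by -0.25 to 0.10. The INSR call did not hold without S116D replicate 2, S116D replicate 3, S116A replicate 1 or S116A replicate 2, at 0.073 to 0.11. The 2 ligand genes measured, IGF1 (-0.07, limma adjusted p = 0.81) and INS, did not pass.

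On the brightest probe set of each gene, 3 secreted regulators outside the 10 genes were called lower in S116D and none higher. They were 1 of 4 other binding proteins and 2 of 8 proteases of binding proteins and their inhibitors. Of all genes read the same way, 11.0% passed and 4.82% were lower. The protease genes ADAM9 and ADAM12 each had a call on 1 dimmer probe set, of 3 for ADAM9 and of 5 for ADAM12. IGFBP1, a binding protein under control of insulin in liver and the chromosomal neighbour of IGFBP3, read 8.17, 8.16 and 8.42 on the S116D arrays and 8.70, 8.70 and 9.21 on the S116A arrays, a difference of -0.62 ± 0.14 (SE; limma adjusted p = 0.033). Without S116D replicate 1, 2 or 3 or S116A replicate 1 or 2 it did not pass, at 0.051 to 0.12. IGFBP1 was called on that 1 of its 2 probe sets. STC1 and STC2 encode stanniocalcins, secreted proteins that inhibit PAPP-A. STC1 read 9.78, 9.43 and 9.38 in S116D and 10.73, 10.78 and 10.54 in S116A, without overlap. It was 2.22-fold lower on this probe set (-1.15 ± 0.12, SE; limma adjusted p = 9e-04), and 2 of its 3 probe sets were called. STC2 read 8.39, 8.56 and 8.44 in S116D and 9.12, 8.90 and 8.92 in S116A. It was 1.43-fold lower on this probe set (-0.51 ± 0.09, SE; limma adjusted p = 0.0089), and both of its probe sets were called. Directions on the dimmer called probe sets of STC1 and STC2 are not given here. Both stanniocalcin calls on the brightest probe sets held whichever array was left out. The protease genes PAPPA (0.06) and PAPPA2 (0.05) did not pass. IGF2BP2, 1 of the 3 genes of proteins that bind IGF2 mRNA, was 1.34-fold lower (limma adjusted p = 0.041) and had an adjusted p of 0.12 to 0.16 without S116D replicate 2 or 3 or S116A replicate 1 or 2. It was called on 1 of its 2 probe sets.

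Inside the cell, PIK3R1, which encodes the p85α regulatory subunit that docks on IRS proteins, was the only one of 15 measured PI3K, AKT and mTOR genes that passed on its brightest probe set. PDPK1, the kinase that activates AKT, and AKT2 each had a call on 1 dimmer probe set, of 6 for PDPK1 and of 7 for AKT2. PIK3R1 read 10.93, 10.77 and 10.64 on the S116D arrays and 10.01, 10.04 and 9.68 on the S116A arrays. The lines did not overlap on this probe set, and the difference was 0.87 ± 0.12 (SE; limma adjusted p = 0.0034), or 1.82-fold. All 3 of its probe sets were called, though the direction on the dimmer ones is not given here. The call on the brightest held whichever array was left out. Of 8 negative regulators, TRIB3, a pseudokinase reported to bind AKT, was higher (0.45, limma adjusted p = 0.0080), on 1 of its 2 probe sets. PHLPP1, a phosphatase acting on AKT, was lower by 0.95 ± 0.18 (SE; limma adjusted p = 0.012), with 0.055 without S116A replicate 1 and 0.057 without S116D replicate 2. PTPN1, a phosphatase acting on the insulin receptor, was also lower (-0.54, limma adjusted p = 0.039), with 0.13 to 0.15 without S116D replicate 2 or 3 or S116A replicate 1 or 2. PHLPP1 was called on 1 of its 2 probe sets and PTPN1 on 1 of 4. None of 9 other adaptors and none of 8 FOXO factors and targets passed by limma, though 1 and 3 of them had an unadjusted p under 0.05. The brightest were SHC1 (-0.10, limma adjusted p = 0.88) and TXNIP (0.49, limma adjusted p = 0.089). TXNIP did pass with the second-component sets as a block (limma adjusted p = 4.7e-04), the replicate number as a block (0.0022) or the GAPDH ratio as a covariate (0.023).

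**Figure D4:**
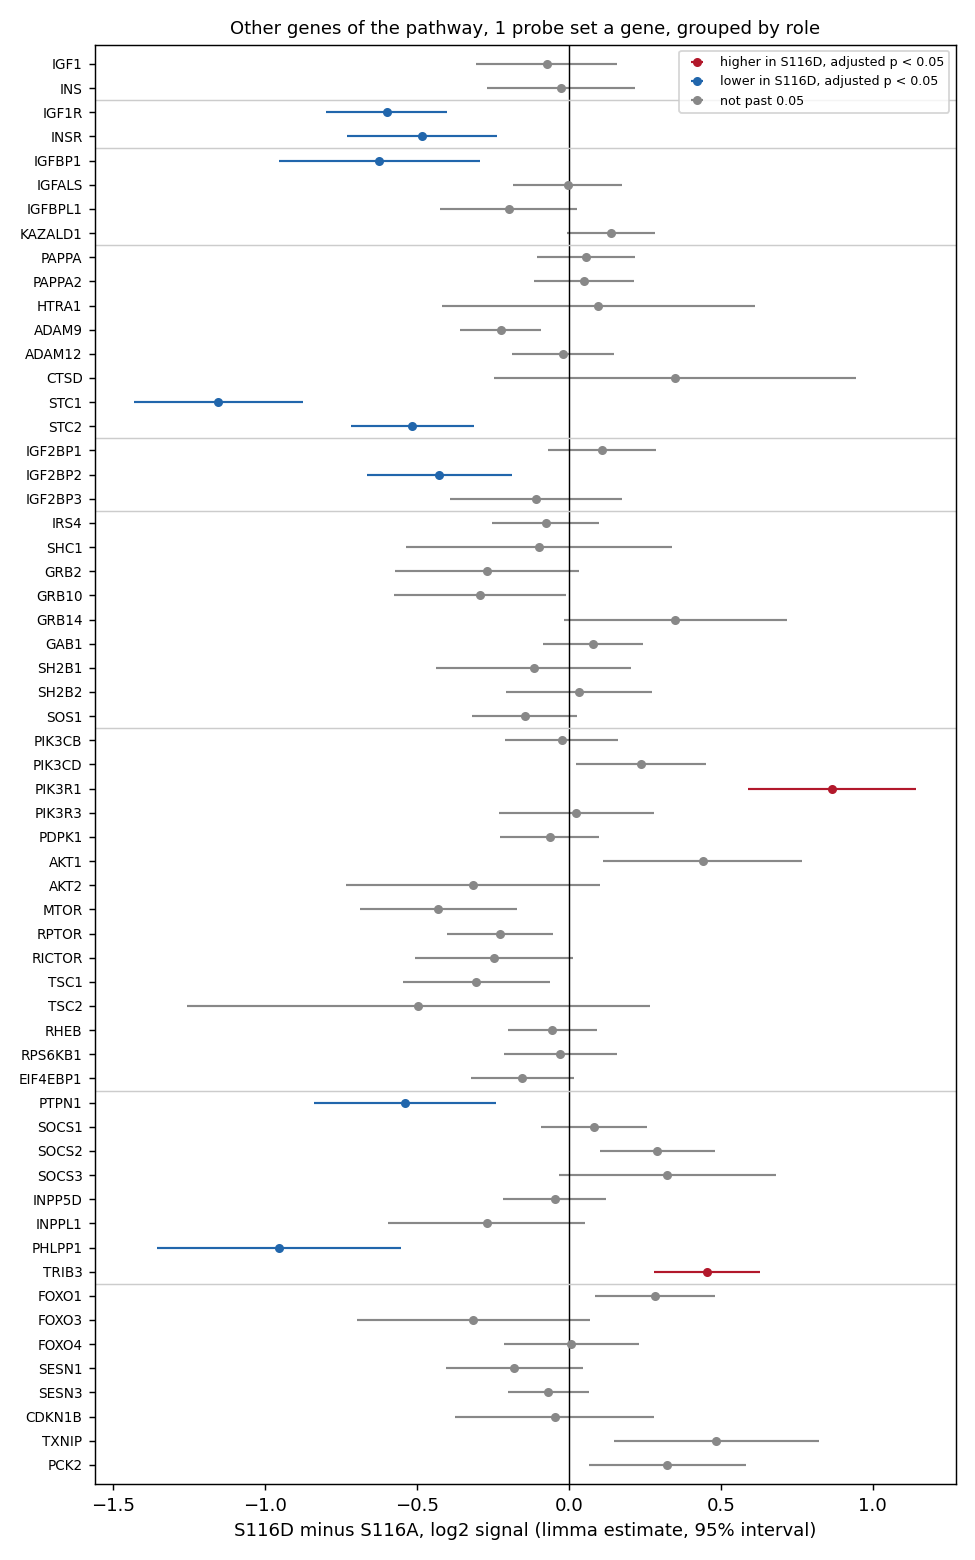
Difference between the lines, S116D minus S116A in log2 signal (horizontal axis), for 59 other pathway genes on the probe set with the highest mean, with limma's 95% interval; grey lines separate ligands, receptors, other binding proteins, proteases and their inhibitors, IGF2 mRNA binding proteins, other adaptors, PI3K with AKT and mTOR, negative regulators, and FOXO factors with targets, from top to bottom. STC1 has the lowest value, -1.15, and PIK3R1 the highest, 0.87.

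The pattern of IGFBP5 211959_at over the 6 arrays was most like that of WNT5A, a secreted Wnt ligand, among probe sets of other genes with a mean above the median. After centring, the 2 differed by a root mean square of 0.24 log2 units. CMTM3 (0.34) and MATN2, which encodes the matrix protein matrilin-2 (0.35), came next. WNT5A on that probe set averaged 9.21 ± 0.63 in S116D and 7.26 ± 0.06 in S116A (SD, n = 3 each), and IGFBP5 had an SD of 0.68 in S116D. On both, S116D replicate 2 was lowest, but replicate 1 was highest for WNT5A and replicate 3 for IGFBP5. The SDs of CMTM3 and MATN2 in S116D were 0.12 and 0.16. This likeness is a description over 6 arrays, most of which is the difference between the lines.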

How the data were processed

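The authors deposited log2 signals, 1 per probe set and array, from Affymetrix HG-U133 Plus arrays of 3 S116D and 3 S116A samples; the scale was taken as log2 because all values lay between 4.34 and 15.3. MAS5 and RMA are named, with no role for either, per the submitters' processing notes; how background was corrected is not given in the sources used here. Multi-array summaries understate differences at low signal.

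After 62 control probe sets were removed, 41091 of 54613 had 1 gene in GEO's platform annotation (41037 found by gene identifier in RefSeq, GRCh38.p14, for current symbols), 1801 had several and 11721 are unnamed here. Sample titles gave the groups. Limma 3.58.1 in R 4.3.3 (lmFit, eBayes with trend, no covariates) was fitted to all 54613, and p-values were adjusted by Benjamini-Hochberg, with calls at under 0.05. Precision is limited by the number of arrays, and an exact permutation test here has a smallest p of 0.1, so none is given. In simulated data on 54613 probe sets the fit recovered 2%, 52%, 78% and 98% of log2 changes of 0.25, 0.5, 1 and 2, and 2.54% of its calls were false. Only 50 probe sets were changed at each size, and noise was drawn independently for each value. The real arrays had 4672 calls and shared variation, as the second component showed, so these shares may not hold for them.

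The members, pathway list, markers and alternatives were chosen with earlier results of these data known. Named were all members, each called pathway gene, the brightest gene of a subgroup without a call, both signalling receptors and the 3 genes nearest in pattern; INS, PAPPA, PAPPA2, PDPK1, AKT2, ADAM9, ADAM12 and the markers were named after their values were seen. Alternatives were quantile and median normalization, a filter on dim probe sets, no trend, array weights, the replicate number or the sets of arrays as a block, the GAPDH ratio as a covariate, 1 probe set a gene, and leaving out each array.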

Additional observations from a re-analysis of the deposited data

How the results depend on the processing

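Of the 10 called member probe sets, 5 kept call and direction in each of the 13 to 15 alternatives that tested them (IGFBP5 211959_at, IGFBP7 201163_s_at and 201162_at, IRS1 204686_at and 242979_at), and the other 5 lost the call when certain arrays were left out. No called member probe set or called pathway gene changed direction in any of these alternatives, though some uncalled differences near 0 did (IGFBP3, IGFBP4, IGFBP5 211958_at and SHC1). Of the 10 called pathway genes, 5 also kept their calls throughout (IGF1R, STC1, STC2, PIK3R1 and TRIB3). Leaving out 1 array gave 5 to 7 called member probe sets, 5 to 12 called pathway genes and 2608 to 4674 called probe sets of all. The filter to means above the median, which left 12 member probe sets, gave 4 called, as did 1 probe set a gene, which left 9; on all genes the second gave 2407. The second-component sets as a block gave 8099 called probe sets and 20 called pathway genes, and the GAPDH ratio as a covariate 7753 and 23; the cause was not tested. Same-numbered arrays deviated from their line means with correlations of 0.45, -0.04 and 0.44, so the numbers were not taken as pairs, and S116D replicate 2 correlated best with S116A replicate 3 (0.31). The replicate block gave 7340 called probe sets, 11 called member probe sets and 18 called pathway genes (8 higher, 10 lower); the added member was IGF2R 201393_s_at, at -0.48 with a limma adjusted p of 0.0054. Signal over background could not be judged, which limits the dim probe sets of IGF2R, IGFBP2, IGFBP5, IGFBP7 and IRS1.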

Other observations

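Genes beside the members on the chromosomes, in the order of RefSeq genes measured here and up to 3 on each side, mostly did not move with them. Of the 48 such genes that are not members, 3 were called, all lower, which is 6.25%, against 11.0% of all genes. For the 5 members with a call, 2 of 29 neighbours were called. Both lie near IRS1 on chromosome 2 and are lower in S116D where IRS1 is higher: COL4A4, a basement membrane collagen gene (-1.83, limma adjusted p = 0.0046), and DOCK10 (-0.76, limma adjusted p = 0.0033). The remaining one is IGFBP1, beside IGFBP3. IGFBP7-AS1, annotated next to IGFBP7, read 5.07 to 5.20 in S116D and 5.01 to 5.18 in S116A and differed by 0.06 (limma adjusted p = 0.71), where IGFBP7 was higher on all 3 probe sets. These genes were named after their values were seen.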
